A study of Mus musculus with 19 samples.

Results

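Loss of Trim71 was examined in the mRNAs of mouse embryonic stem cells that already lacked Lin28a. The 10 libraries compared, of 19 in the series, were chosen by the genotype and harvest day in the labels: 5 KO-KO libraries and 5 WT-KO libraries, with the Trim71 state written first. WT-KO cells were Trim fl/fl and Lin28a-/-, so their Trim71 alleles were floxed and not deleted, and KO-KO cells were Trim-/- and Lin28a-/-. Both groups therefore share the loss of Lin28a. A separate pair of genotypes with Lin28a intact (WT-WT and KO-WT) was fitted together with them. Its libraries thus share in the estimate of spread behind the p-values below. Its own values are given only to compare the Lin28a states. All cells were male C57BL/6 embryonic stem cells grown in serum with leukaemia inhibitory factor and enriched on magnetic beads for SSEA-1, a carbohydrate antigen of undifferentiated mouse stem cells. Per the labels' protocols, Trim71 was deleted by exposure to 500 nM 4-hydroxytamoxifen for 2 days, followed by at least 7 days of culture. The labels name this drug for the deletion and name no matching exposure of WT-KO cells, so the drug and the deletion cannot be told apart, and the driver of the recombinase is not given in the sources used here. Each group held 2 libraries of the Lin28a-null clone 1-4 (days 1 and 5) and 3 of clone C1 (days 2, 3 and 4), and every harvest day gave 1 library of each genotype from 1 clone. With 2 clones, the p-values below measure the spread between harvests and say little about other clones.

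TRIM71, known in worms as LIN-41, is a tripartite-motif protein with a RING domain that can act as a ubiquitin ligase and an NHL domain that binds structured RNA. In stem cells it represses a set of mRNAs through hairpins in their 3′ untranslated regions, and its own mRNA is a classical target of the microRNA let-7. LIN28A binds let-7 precursors and blocks their maturation, so stem cells that express it hold little mature let-7. The study's title concerns the repression of let-7 by TRIM71, and the Lin28a-null cells show which mRNAs respond to Trim71 loss where the block by LIN28A is missing.

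The values are the authors' deposited log2 expression values, from which differences between harvest days had been removed, and the read depth of each library is unknown. Of 21685 genes in the table, 14988 reached log2 of 10 in at least 4 libraries and were tested. Trim71 itself was read first as a check of the labels. On days 1 to 5 it stood at 10.53, 11.00, 10.57, 10.67 and 10.49 in WT-KO and at 9.28, 9.05, 9.24, 9.25 and 9.55 in KO-KO. The groups did not overlap, and Trim71 fell by 1.38 ± 0.103 (SE, limma adjusted p = 2.36e-06). Transcript remained in KO-KO cells at a 2.59-fold lower level, and the part of the gene that was deleted is not given in the sources used here. Lin28a stood at a mean of 8.47 ± 0.09 (SD, n = 5) in WT-KO and 8.28 ± 0.06 (n = 5) in KO-KO, against 10.13 ± 0.16 (n = 4) in WT-WT, and its difference between KO-KO and WT-KO did not pass (-0.20 ± 0.07 SE, limma adjusted p = 0.0971).

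Loss of Trim71 moved many transcripts by small amounts. Of the 14988 tested genes, 1256 (8.38%) passed the limma test at an adjusted p under 0.05, 639 of them higher (4.26%) and 617 lower (4.12%) in KO-KO. Their median absolute log2 difference was 0.29, and 57 of them differed by at least 1.5-fold (29 higher and 28 lower). At 2-fold or more there were 5 higher genes (among them Ccr4, Gm364, Foxj1 and Emp1) and 1 lower gene, Trim71. Gm364 lies below the minimum level set for naming genes and is named for this count after its values were seen. All 5 KO-KO libraries lay beyond all 5 WT-KO libraries for 1889 tested genes (12.6%) and for 1079 of the called genes. Of the called genes, 1139 moved the same way in all 5 day pairs. The genes were called on these same libraries, so neither count among the called genes is separate evidence of agreement between days. The number of calls depended on single libraries: it was 688 without KO-KO replicate 1, 692 without KO-KO replicate 2, 814 without WT-KO replicate 1, 676 without WT-KO replicate 4 and 769 without WT-KO replicate 5, and between 851 and 1297 without each of the others. Without KO-KO replicate 3 the lower calls fell to 382.

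**Figure D1:**
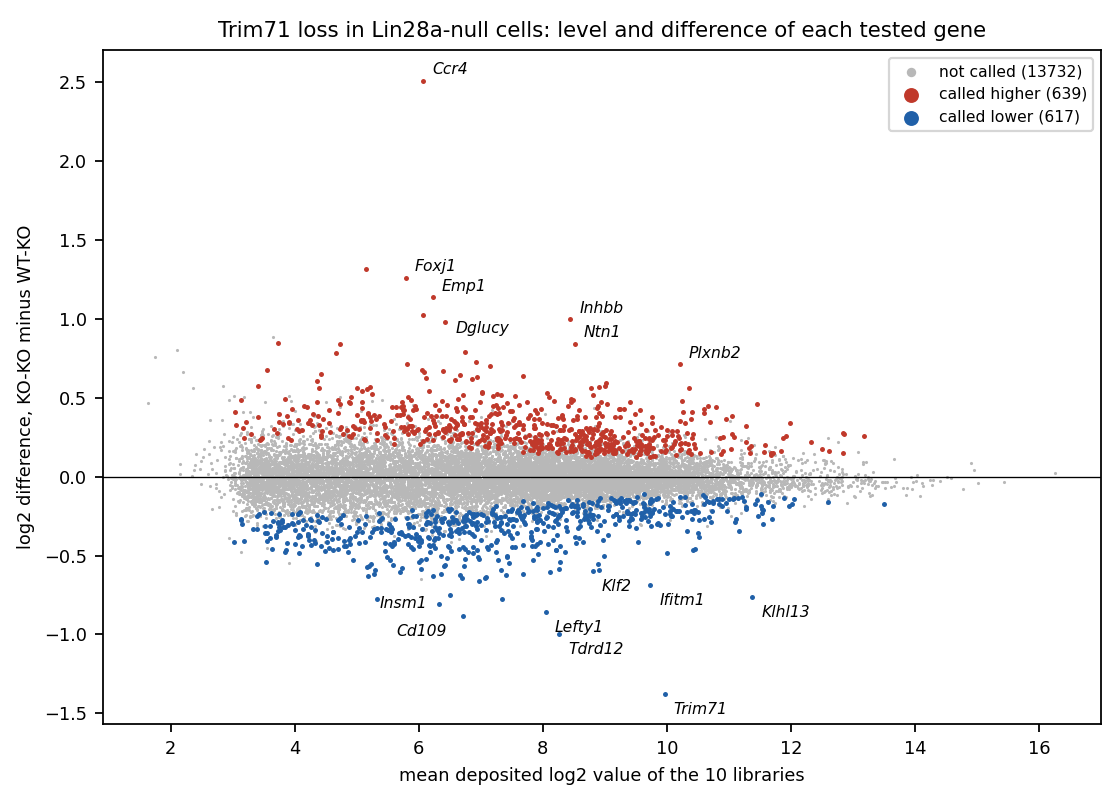
Each point is 1 of the 14988 tested genes, with its mean deposited log2 value over the 10 libraries on the x axis and the log2 difference KO-KO minus WT-KO on the y axis. Red points were called higher (639), blue points lower (617) and grey points were not called. Ccr4 stands alone at 2.51, and Trim71 is the lowest point at -1.38.

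By the rule for named genes (called, at a mean of at least log2 of 50, with no overlap between the groups), the 12 with the largest rises included Ccr4, Foxj1, Emp1, Inhbb, Dglucy, Ntn1, Zc3h12a, Mras, Islr2, Plxnb2 and AI481877. Since the rule asks for no overlap, it fixes the direction of every day pair. Ccr4, a chemokine receptor of T cells, read 4.99, 4.96, 4.47, 4.86 and 4.78 on days 1 to 5 in WT-KO and 7.42, 7.31, 7.54, 7.27 and 7.07 in KO-KO. It rose by 2.51 ± 0.201 (SE), or 5.70-fold, with a limma adjusted p of 2.76e-06. The lowest KO-KO library (7.07) lay far above the highest WT-KO library (4.99).

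Foxj1, the transcription factor that switches on motile cilium genes, read 5.12, 5.18, 5.42, 4.84 and 5.23 in WT-KO and 6.46, 6.49, 6.23, 6.59 and 6.34 in KO-KO. Its rise was 1.26 ± 0.097 (SE, limma adjusted p = 2.36e-06), and the day 3 pair was the closest. Emp1, a tetraspan membrane protein of epithelia, read 5.72, 5.69, 5.78, 5.38 and 5.72 in WT-KO and 6.86, 6.90, 6.74, 6.87 and 6.62 in KO-KO, a rise of 1.14 ± 0.089 (limma adjusted p = 2.42e-06). Day 4 gave the lowest WT-KO value of both Foxj1 and Emp1. Dglucy, a mitochondrial D-glutamate cyclase, rose by 0.98 ± 0.090 (limma adjusted p = 8.62e-06), from 5.83 to 6.10 up to 6.67 to 7.07.

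The next group included secreted and membrane proteins with roles in guidance of cells and axons. Ntn1, the secreted cue netrin-1, stood between 7.87 and 8.33 in WT-KO and between 8.85 and 9.02 in KO-KO, a rise of 0.84 ± 0.091 (limma adjusted p = 4.16e-05). Plxnb2, the semaphorin receptor plexin-B2, was abundant and rose by 0.71 ± 0.068 (limma adjusted p = 1.09e-05), from 9.71 to 10.05 up to 10.38 to 10.70. Islr2, a transmembrane protein with leucine-rich repeats, rose by 0.71 ± 0.098 (limma adjusted p = 0.000358). Zc3h12a, the endoribonuclease Regnase-1 that degrades inflammatory mRNAs, rose by 0.79 ± 0.075 (limma adjusted p = 1.09e-05), and Mras, a Ras-family GTPase, rose by 0.73 ± 0.073 (limma adjusted p = 2.01e-05). AI481877 rose by 0.70 ± 0.150 (limma adjusted p = 0.00873). In the runs of 1 clone alone given below, Lin28a-intact libraries of other clones also entered the estimate of spread. None of the 12 calls was lost when any 1 of the 10 libraries was left out, and in clone 1-4 alone only Islr2 lost its call (0.0839), in clone C1 alone only AI481877 (0.0679).

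Among the transcripts that fell, the 12 largest after the same rule were Trim71, Tdrd12, Cd109, Lefty1, Nrsn1, Sema3e, Klhl13, Insm1, Ifitm1, Trh, Trim36 and Myb. Tdrd12, a Tudor-domain protein of the piRNA pathway in germ cells, read 8.73, 8.74, 8.46, 9.15 and 8.72 on days 1 to 5 in WT-KO and 7.68, 7.51, 7.72, 7.99 and 7.91 in KO-KO. It fell by 1.00 ± 0.146 (SE, limma adjusted p = 0.00064) and fell least on days 3 and 5. Cd109, a membrane-anchored co-receptor that dampens TGF-beta signalling, read 6.99, 7.14, 7.26, 7.56 and 6.81 in WT-KO and 6.36, 6.13, 6.03, 6.13 and 6.69 in KO-KO. It fell by 0.88 ± 0.146 (limma adjusted p = 0.00151), and the pair of day 5 nearly met. Lefty1, a secreted antagonist of Nodal, read 8.31, 8.50, 8.42, 8.46 and 8.69 in WT-KO and 7.63, 7.58, 7.65, 7.68 and 7.57 in KO-KO, a fall of 0.86 ± 0.106 (limma adjusted p = 0.000157).

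Klhl13, a kelch-domain adaptor of CUL3 ubiquitin ligases, was the most abundant of these genes. It read 11.69, 11.81, 11.71, 11.93 and 11.67 in WT-KO and 11.05, 10.86, 11.03, 10.94 and 11.12 in KO-KO, a fall of 0.76 ± 0.067 (limma adjusted p = 4.96e-06). Genes of neural and neuroendocrine cells followed: Nrsn1, a neuronal vesicle protein, at -0.80 ± 0.114, and Insm1, a zinc finger factor of neuroendocrine precursors, at -0.75 ± 0.106. Trh, the precursor of thyrotropin-releasing hormone, differed by -0.66 ± 0.138. Sema3e, a secreted semaphorin, differed by -0.77 ± 0.121, with larger falls on days 2, 3 and 4 (clone C1) than on days 1 and 5. Ifitm1, an interferon-induced membrane protein, differed by -0.69 ± 0.108, the ubiquitin ligase Trim36 by -0.64 ± 0.118 and Myb, a transcription factor of blood progenitors, by -0.64 ± 0.108. The limma adjusted p of these 7 genes ran from 0.000446 (Insm1) to 0.00746 (Trh), and none of the 12 calls was lost without any 1 library. In clone 1-4 alone 7 of the 12 lost their call, with adjusted p from 0.0575 (Nrsn1) to 0.232 (Trim36), and in clone C1 alone Ifitm1 (0.0574) and Trh (0.0895) did.

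**Figure D2:**
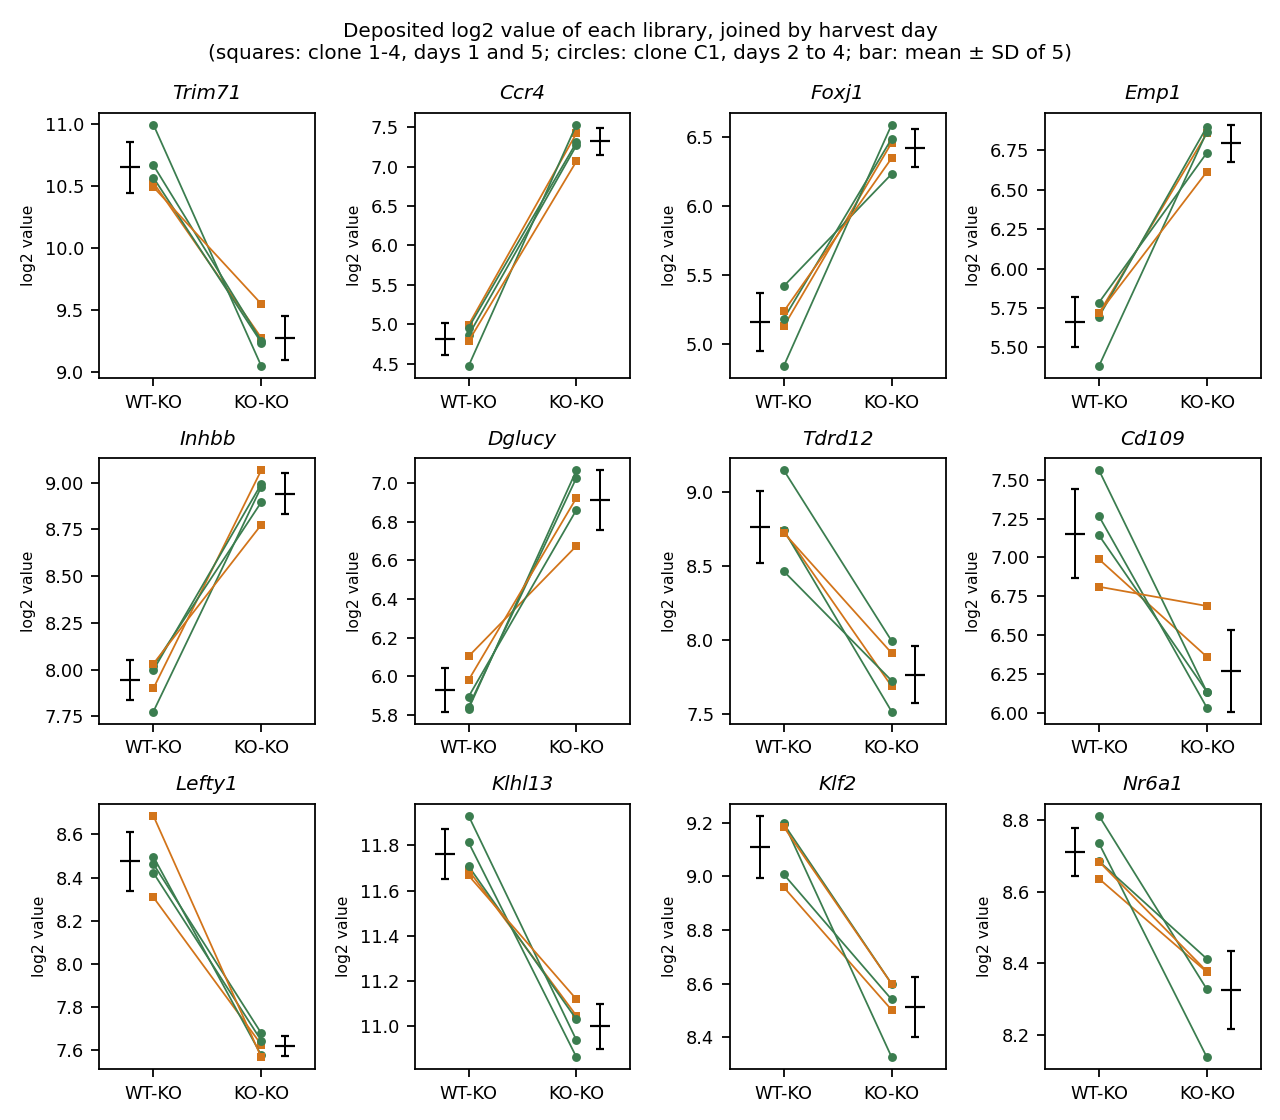
Deposited log2 value (y axis, scaled for each gene) of 12 genes in WT-KO and KO-KO, with a line joining the 2 libraries of each harvest day. Squares are clone 1-4 (days 1 and 5), circles clone C1 (days 2 to 4), and bars give the mean ± SD of 5 libraries. Most genes shown were chosen for groups that do not overlap, and for Cd109 the line of day 5 is nearly flat (6.81 to 6.69).

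Ccr4 and Trim71 are direct neighbours on mouse chromosome 9 in the RefSeq gene order, so the 5 tested genes to each side of Trim71 were read. Ccr4 differed by far more than the other 9. On its side lay Tmppe at 0.26 ± 0.071 (SE, limma adjusted p = 0.0304), Glb1 at 0.09 ± 0.057, Crtap at 0.01 ± 0.054 and Susd5 at -0.05 ± 0.072. On the other side lay Cnot10 at 0.11 ± 0.034 (limma adjusted p = 0.0646), Dync1li1 at -0.05 ± 0.033, Cmtm6 at 0.02 ± 0.045, Cmtm7 at 0.23 ± 0.070 (limma adjusted p = 0.0498) and Gm9888 at 0.04 ± 0.071. The calls of Tmppe and Cmtm7 were lost without 6 and 8 of the 10 libraries, with adjusted p up to 0.105 (Tmppe, without WT-KO replicate 5) and 0.162 (Cmtm7, without KO-KO replicate 2).

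Of 7 mRNAs known as repressed by TRIM71, 4 rose and none fell (57.1% called against 8.38% of all genes), and the median log2 difference was 0.38 against -0.01 over all tested genes. Some of them may have been named from cells like these, so the count is no independent evidence of direction. Besides Inhbb and Plxnb2, the risers were Mbnl1, a splicing regulator, and Cdkn1a, the cell cycle inhibitor p21. Inhbb, the beta-B subunit of activins and inhibins, stood between 7.78 and 8.03 in the 5 WT-KO libraries and at 9.07, 8.99, 8.90, 8.98 and 8.78 on days 1 to 5 in KO-KO. It rose by 1.00 ± 0.081 (SE, limma adjusted p = 2.83e-06), and the groups did not overlap. Mbnl1 read 7.10, 7.22, 6.97, 7.14 and 6.88 in WT-KO and 7.78, 7.48, 7.85, 7.27 and 7.52 in KO-KO, a rise of 0.52 ± 0.113 (limma adjusted p = 0.00999) whose day 4 pair was close.

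Cdkn1a read 8.53, 8.45, 8.73, 8.28 and 8.42 in WT-KO and 8.88, 8.96, 8.77, 8.85 and 8.87 in KO-KO. The rise was 0.38 ± 0.076 (limma adjusted p = 0.00571), and the day 3 pair differed least. The pocket proteins Rbl1 (0.14 ± 0.089) and Rbl2 (0.05 ± 0.075) and the immediate early gene Egr1 (0.10 ± 0.120) did not pass. The 4 calls held without each single library. In clone C1 alone the calls of Mbnl1 (limma adjusted p = 0.219) and Cdkn1a (0.174) were lost, and in clone 1-4 alone that of Mbnl1 (0.0684).

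The title's subject, let-7, was not measured in these mRNA libraries, so only mRNAs that carry its target sites could be read. The mature let-7 family of the mouse shares its seed, bases 2 to 8 from the 5′ end, shown in capitals because this stretch sets which mRNAs are bound (RefSeq, GRCm38.p6):
let-7a: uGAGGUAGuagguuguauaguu
let-7b: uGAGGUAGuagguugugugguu
let-7e: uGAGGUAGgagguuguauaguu
let-7g: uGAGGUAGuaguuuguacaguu
miR-98: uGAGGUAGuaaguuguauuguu
In 3′ untranslated regions the matching site of 8 bases is CTACCTCA on the transcribed strand, the reverse complement of the seed followed by an A. It was found in the longest annotated 3′ untranslated region of 467 (3.73%) of the 12531 tested genes that had one in the GENCODE annotation of GRCm38. Windows of 24 bases around the first site are shown for the 2 list members that hold a site and fell, and for 3 classical targets that did not pass, with the site in capitals:
Prtg (chr9:72912558-72912581, plus strand): ccctctgctgaatagCTACCTCAg
Nr6a1 (chr2:38727448-38727471, minus strand): tgttgacaaagacaaCTACCTCAa
Hmga2 (chr10:120364223-120364246, minus strand): gccgacattcaatttCTACCTCAg
Lin28b (chr10:45381021-45381044, minus strand): acccgggcgggaagtCTACCTCAt
Igf2bp1 (chr11:95961777-95961800, minus strand): gctgtgcgaagtaaaCTACCTCAa
A match is a description of the sequence and no proof of regulation.

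Of 39 tested let-7 targets in a list from general knowledge, 5 fell and 1 rose (15.4% called), and the median log2 difference was -0.05 against -0.01 over all tested genes. The falls numbered 3 without KO-KO replicate 2 or WT-KO replicate 4. Among the falls, the place of Imp3 in this list is uncertain, as given below. Nr6a1, a nuclear receptor of the early embryo with 3 sites, read 8.64, 8.69, 8.81, 8.74 and 8.69 on days 1 to 5 in WT-KO and 8.38, 8.41, 8.33, 8.14 and 8.38 in KO-KO. It fell by 0.38 ± 0.059 (SE, limma adjusted p = 0.000867), with a gap between the groups in every pair. Prtg, the netrin-receptor relative protogenin with 1 site, read 6.60, 6.69, 6.82, 6.82 and 6.65 in WT-KO and 6.50, 6.42, 6.23, 5.98 and 6.22 in KO-KO. Its fall was 0.45 ± 0.094 (limma adjusted p = 0.00802) and was smallest on day 1. Cdc25a, the phosphatase that starts S phase, fell by 0.24 ± 0.041 (limma adjusted p = 0.00205), from values of 10.13 to 10.23 to values of 9.87 to 9.96. Its longest 3′ untranslated region holds no 8-base site. Prtg and Cdc25a lost their calls in clone 1-4 alone (limma adjusted p = 0.304 and 0.0528) and in clone C1 alone (0.0574 and 0.0922). Nr6a1 kept its call in both (0.0473 and 0.0395).

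Dicer1, the enzyme that cuts microRNA precursors, fell by 0.22 ± 0.054 (limma adjusted p = 0.0217), but this call was lost without WT-KO replicate 4 (0.0686), KO-KO replicate 2 (0.06) or KO-KO replicate 4 (0.0595). Imp3, at -0.19 ± 0.054, and Thbs1, the matrix protein thrombospondin-1, at 0.54 ± 0.144, passed with all libraries. Their calls were lost without 9 and 6 of the 10, at limma adjusted p up to 0.133 and 0.1. The gene Imp3 is not Igf2bp3, which is listed separately, and its longest 3′ untranslated region holds no 8-base site. Its place among let-7 targets is therefore uncertain. The classical oncofetal targets did not pass: Hmga2 at 0.05 ± 0.069, Lin28b at -0.05 ± 0.093, Igf2bp1 at 0.09 ± 0.054, Igf2bp2 at -0.15 ± 0.067 and Igf2bp3 at -0.07 ± 0.070. In WT-KO and KO-KO respectively, Lin28b ranged from 7.82 to 8.19 and from 7.85 to 8.14, so the groups overlapped.

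Across all genes with a 3′ untranslated region, genes with a let-7 site lay close to the rest. Of the 467 genes with at least 1 site, 26 rose (5.57%) and 22 fell (4.71%), against 4.76% and 4.49% of all 12531, and the medians were 0.01 and -0.01. The 467 genes had longer 3′ untranslated regions (median 2472 bases against 1148 for all). Among genes whose region was longer than the median, 6.04% of 381 with a site rose and 5.25% fell. The shares of all 6264 such genes were 5.57% and 4.20%. The 27 genes with at least 2 sites had a median of 0.01, with 2 higher and 3 lower. Sites of the same kind for miR-294, the abundant microRNA of mouse stem cells, gave 14 higher and 14 lower of 432 genes. Those for miR-29 gave 21 and 18 of 400, and those for miR-125 gave 35 and 37 of 710. Within the let-7 list, the 19 members with a site held 2 falls and a median of -0.06, and the 20 without held 3 falls and 1 rise and a median of 0.02. The rises of the let-7 site genes numbered 14 without KO-KO replicate 1, 10 without KO-KO replicate 2, 12 without WT-KO replicate 4 and 16 without WT-KO replicate 5. Their falls numbered 14, 12 and 11 without KO-KO replicates 1, 2 and 3, and 11 without WT-KO replicate 1 or 4. The median stayed between 0.003 and 0.02.

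**Figure D3:**
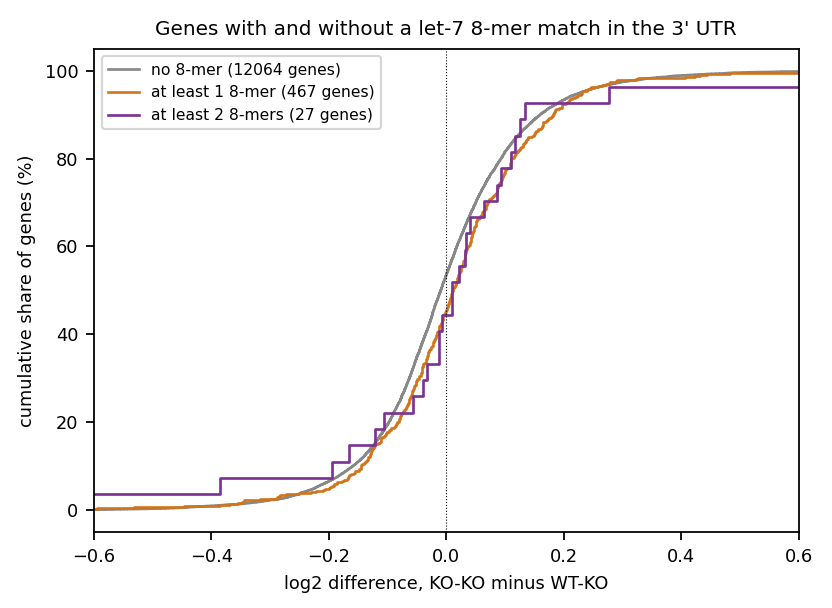
Cumulative share of genes (y axis, percent) at or below each log2 difference KO-KO minus WT-KO (x axis), for tested genes without a let-7 site of 8 bases in their 3′ untranslated region (grey), with at least 1 (orange, 467 genes) and with at least 2 (purple, 27 genes). The orange curve runs slightly to the right of the grey one around 0, and the median of the 467 genes is 0.01.

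Genes of microRNA processing, genes of mRNA decay and listed relatives of Trim71 gave calls at shares near or below the 8.38% of all tested genes. In these 3 lists, 1 of 19, 0 of 21 and 1 of 23 were called. Of 19 genes of microRNA processing and silencing (5.26% called) only Dicer1 passed, as given above, and the other 18 lay between -0.07 and 0.17. None of 21 subunits of the CCR4-NOT deadenylase and of nonsense-mediated decay, which shorten and destroy mRNAs, passed limma, with 1 at an unadjusted p under 0.05, and their differences lay between -0.11 and 0.11. Of 23 listed relatives in the tripartite-motif family (4.35% called), 1 passed (Trim32, 0.26 ± 0.071 SE, limma adjusted p = 0.0308). Its call was lost without 6 of the 10 libraries, at up to 0.102 without KO-KO replicate 1. The list does not hold Trim36, a family member that fell by 0.64 ± 0.118 (limma adjusted p = 0.00309), so it does not cover the whole family.

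None of the core pluripotency factors passed, while Kruppel-like factors moved in both directions. Pou5f1 (0.03 ± 0.047 SE), Nanog (0.08 ± 0.071), Esrrb (0.03 ± 0.040) and Zfp42 (0.04 ± 0.052) did not pass, and neither did Sox2 (-0.16 ± 0.048, limma adjusted p = 0.0573), although it was lower in 5 of 5 day pairs. Klf2 read 8.96, 9.20, 9.01, 9.20 and 9.18 on days 1 to 5 in WT-KO and 8.50, 8.33, 8.54, 8.60 and 8.60 in KO-KO. It fell by 0.60 ± 0.073 (limma adjusted p = 0.000135), and every KO-KO library lay below every WT-KO library. Klf4 rose by 0.38 ± 0.059 (limma adjusted p = 0.000894), from 10.74 to 11.00 up to 11.13 to 11.31, and Klf5 by 0.36 ± 0.044 (limma adjusted p = 0.000157), from 9.98 to 10.10 up to 10.36 to 10.42. These 3 factors share many targets and support self-renewal.

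In the whole list of 26 core and naive pluripotency genes, 7 rose and 4 fell (42.3% called against 8.38% of all genes), at a median of 0.03. The rises numbered 4 without KO-KO replicate 3. Nr5a2, a nuclear receptor that drives Pou5f1, rose by 0.40 ± 0.065 (SE, limma adjusted p = 0.00136), and Stat3, the effector of leukaemia inhibitory factor, by 0.24 ± 0.045 (limma adjusted p = 0.00436). Fbxo15, a marker of undifferentiated cells, fell by 0.48 ± 0.089 (limma adjusted p = 0.00327). Tbx3, Tdgf1 and Fgf4 also passed as higher and Tcl1 as lower, at adjusted p from 0.0159 to 0.0292, and each lost its call without at least 3 of the 10 libraries, at up to 0.116 (Tbx3, without KO-KO replicate 2). In clone C1 alone, Klf2 and Klf5 kept an adjusted p under 0.05, and Klf4 (0.0816), Nr5a2 (0.0841), Stat3 (0.334) and Fbxo15 (0.08) did not. Of 16 formative and primed state genes, which mark the step after the naive state, 1 rose and 2 fell (18.8% called). The falls were those of Zic5 and Sox4, and their calls were lost without 8 and 6 of the libraries, at up to 0.13 and 0.115.

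**Figure D4:**
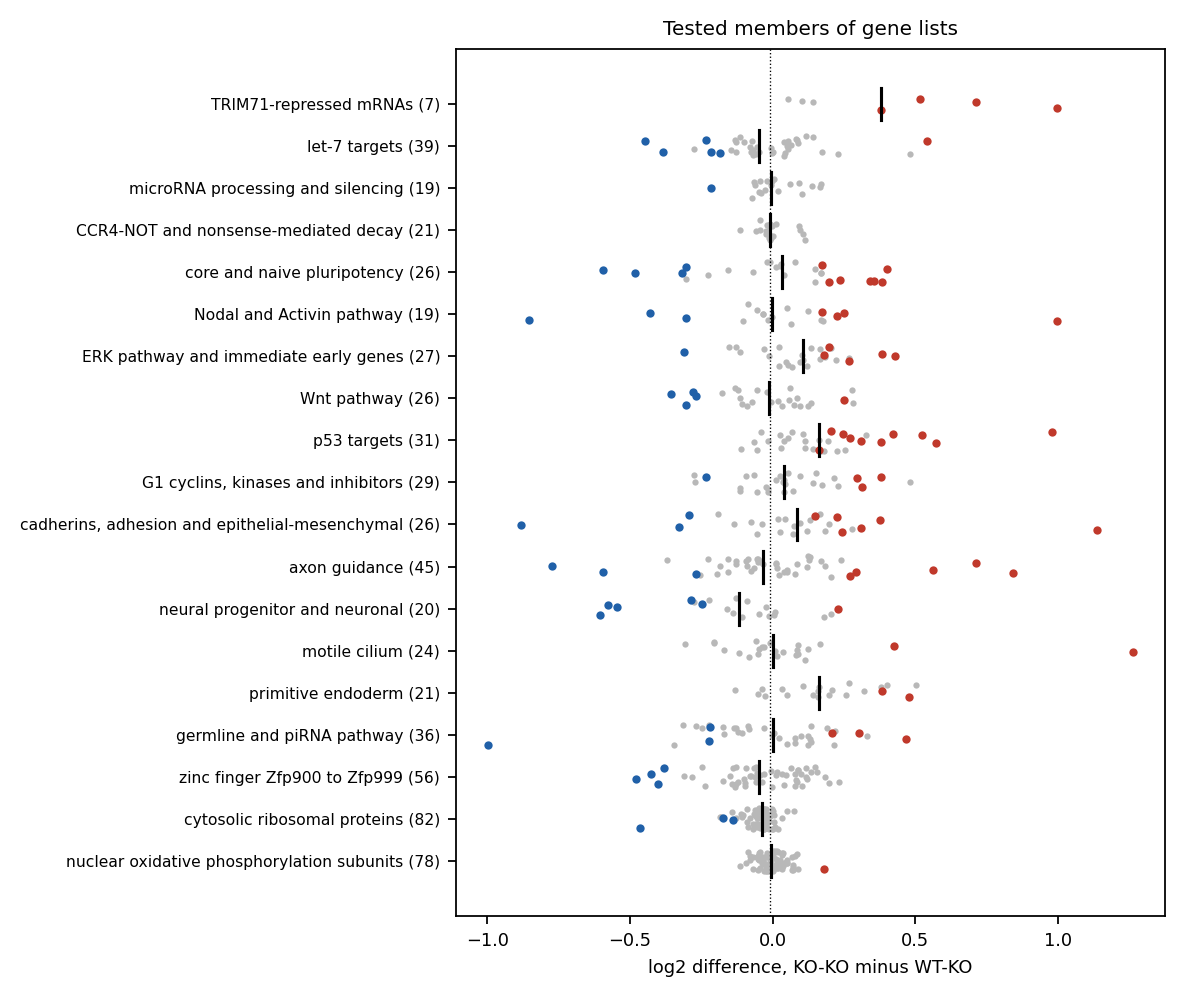
Log2 difference KO-KO minus WT-KO (x axis) of each tested member of 19 gene lists (rows, number of tested members in brackets). Red and blue points were called higher and lower, grey points were not called, black bars mark the list median and the dotted line the median of all tested genes (-0.01). The list of mRNAs repressed by TRIM71 has its median at 0.38, the p53 targets at 0.16 and the neural list at -0.12.

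Genes of Nodal and Activin signalling moved in both directions, among ligands and among inhibitors. This TGF-beta branch acts through SMAD2 and SMAD3 and switches on its own inhibitors, the Lefty genes. Of 19 tested members, 4 rose and 3 fell (36.8% called against 8.38% of all genes), at a median of -0.002. The rises numbered 2 without KO-KO replicate 1 or WT-KO replicate 1. Of the ligands, Inhbb rose as given above, Gdf3 fell by 0.30 ± 0.060 (SE, limma adjusted p = 0.00552), and Nodal did not pass (0.17 ± 0.065, limma adjusted p = 0.127), although its groups did not overlap. Of the inhibitors, Lefty1 fell by the 0.86 given above, while Smad7 rose by 0.25 ± 0.045 (limma adjusted p = 0.00264).

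Lefty2, the paralogue of Lefty1 on the same chromosome, read 7.72, 8.02, 7.75, 7.91 and 8.11 in WT-KO and 7.51, 7.29, 7.55, 7.61 and 7.42 in KO-KO. It fell by 0.43 ± 0.101 (limma adjusted p = 0.0151), and the call was lost without KO-KO replicate 2 (0.0647) or WT-KO replicate 5 (0.0551). Lefty1 and Lefty2 are similar in sequence, so reads could have been shared between them. The receptor gene Acvr1b (0.22 ± 0.055) passed with all libraries and lost its call without 5 of them, at up to 0.0763 without KO-KO replicate 2. Of 15 genes of the related BMP branch, Bmp4 rose by 0.33 ± 0.064 (limma adjusted p = 0.00487) and no other passed (6.67% called).

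Of 31 tested targets of the p53 tumour suppressor, 10 rose, none fell and 21 did not pass (32.3% called against 8.38% of all genes). A positive difference was seen for 26 of the 31, against 46.6% of all tested genes, and the median was 0.16. Trp53 itself, which encodes p53, stood at 11.52 to 11.62 in WT-KO and 11.48 to 11.57 in KO-KO (-0.03 ± 0.036 SE, limma adjusted p = 0.647). Besides Dglucy and Cdkn1a, the antiproliferative gene Btg2 read 8.65, 8.52, 8.93, 8.45 and 8.56 on days 1 to 5 in WT-KO and 9.22, 9.30, 9.05, 9.20 and 9.19 in KO-KO, a rise of 0.57 ± 0.078 (limma adjusted p = 0.000351). The pair of day 3 was again the closest. Perp, a membrane protein of apoptosis, rose by 0.52 ± 0.061 (limma adjusted p = 0.000103), from 6.88 to 7.11 up to 7.43 to 7.64, and the kinase gene Plk2 by 0.42 ± 0.091 (limma adjusted p = 0.00956). In clone C1 alone Btg2 (limma adjusted p = 0.0578) and Plk2 (0.256) lost their calls and Perp (0.0126) kept its call. In clone 1-4 alone Btg2, Perp and Plk2 kept theirs.

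The other 5 p53 targets that passed were Mdm2, the ligase that degrades p53, with Ccng1, Zmat3, Phlda3 and Pidd1. Their rises lay between 0.16 (Zmat3) and 0.31 (Phlda3), and each lost its call without 3 to 7 of the 10 libraries, at up to 0.144 (Zmat3, without KO-KO replicate 1). The list gave 5 rises without KO-KO replicate 1 or 2, 6 without WT-KO replicate 4 and up to 13 without WT-KO replicate 3, and its median stayed between 0.14 and 0.20. By day, the list median was 0.22, 0.27, 0.04, 0.10 and 0.16. Of 29 genes of the G1 phase, 3 rose and 1 fell (13.8% called): Cdkn1a and the E2F factors E2f2 (0.31 ± 0.060, limma adjusted p = 0.00437) and E2f8 (0.29 ± 0.054, limma adjusted p = 0.0032) were higher, and Cdc25a was lower. The rises numbered 5 without WT-KO replicate 2. Cyclin D2 (Ccnd2, 0.48 ± 0.157, limma adjusted p = 0.0689) did not pass.

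Of 20 tested genes of neural differentiation, 5 fell and 1 rose (30% called against 8.38% of all genes). A negative difference was seen for 15 of the 20, against 53.4% of all tested genes, and the median was -0.12. Only 3 fell without KO-KO replicate 1, 2 or 5 or without WT-KO replicate 1, 2, 4 or 5. Neurog1, a proneural transcription factor, read 5.84, 6.12, 6.09, 6.08 and 5.98 on days 1 to 5 in WT-KO and 5.47, 5.44, 5.53, 5.14 and 5.65 in KO-KO. It fell by 0.58 ± 0.101 (SE, limma adjusted p = 0.00229), and the groups did not overlap. Its downstream factor Neurod1 fell by 0.55 ± 0.108 (limma adjusted p = 0.00519), from 7.48 to 7.93 down to 6.92 to 7.44, and the Notch ligand Dll1 by 0.60 ± 0.096 (limma adjusted p = 0.00115), from 5.83 to 6.19 down to 5.26 to 5.49. The progenitor gene Olig2 rose by 0.23 ± 0.052 (limma adjusted p = 0.0128). In clone 1-4 alone Neurog1 (limma adjusted p = 0.21), Neurod1 (0.261) and Dll1 (0.0701) lost their calls. In clone C1 alone they kept them, and Olig2 (0.385) lost its call. Neurod1 differed by -0.23 in clone 1-4 and -0.75 in clone C1.

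The early neural genes Sox1 (0.18 ± 0.103) and Pax6 (-0.13 ± 0.085) and the neuronal tubulin Tubb3 (-0.28 ± 0.104) did not pass. Nefm and Crmp1 passed as lower and lost their calls without 9 and 7 of the libraries, at up to 0.139 and 0.118 without KO-KO replicate 2. The summed level of 6 neural marker genes was 9.25 to 9.57 in WT-KO and 9.15 to 9.28 in KO-KO (log2). The cells had been enriched for SSEA-1, and in bulk libraries fewer cells of a type and less RNA per cell cannot be told apart.

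Axon guidance genes gave 5 rises and 3 falls of 45 (17.8% called), at a median of -0.03. The rises numbered 3 without KO-KO replicate 2 or WT-KO replicate 1 or 4, and the falls 1 without KO-KO replicate 3. Epha2, an ephrin receptor also found on stem cells, rose by 0.56 ± 0.085 (SE, limma adjusted p = 0.000867), from 9.90 to 10.37 up to 10.56 to 10.72, beside Ntn1, Plxnb2 and the fall of Sema3e. The neuropilin gene Nrp2, at -0.59 ± 0.143, passed with all libraries (limma adjusted p = 0.0175) and lost its call without 4 of them, at up to 0.0739 without KO-KO replicate 2. Of 24 tested genes of motile cilia, Foxj1 and Cfap43 (0.42 ± 0.088, limma adjusted p = 0.00746) rose and none fell, a share of 8.33% called that is close to the 8.38% of all genes, and the list median was -0.0004.

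Genes of epithelial adhesion and of growth factor feedback had medians above 0, which were larger in clone 1-4 than in clone C1. The adhesion median was 0.15 in clone 1-4 and 0.03 in clone C1, and it was -0.06 on day 3. A clone difference of these medians was not tested. Of 26 adhesion genes, 6 rose and 3 fell (34.6% called against 8.38% of all genes), at a median of 0.09. The rises numbered 2 without KO-KO replicate 1 and 3 without WT-KO replicate 5, and the falls 1 without WT-KO replicate 4. The tight junction gene Ocln rose by 0.31 ± 0.055 (SE, limma adjusted p = 0.00235), from 6.21 to 6.33 up to 6.53 to 6.63, beside Emp1 and the fall of Cd109. Cdh1, which encodes E-cadherin, rose by 0.15 ± 0.035 (limma adjusted p = 0.0159), from 11.58 to 11.61 up to 11.71 to 11.80, and its call was lost without KO-KO replicate 1 (0.0646), KO-KO replicate 2 (0.0634) or WT-KO replicate 5 (0.05). The repressor of E-cadherin, Zeb1, fell by 0.33 ± 0.075 (limma adjusted p = 0.0134) and lost its call without WT-KO replicate 4 (0.0512).

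Of 27 ERK pathway and immediate early genes, 5 rose and 1 fell (22.2% called), at a median of 0.11. The fall was Fgfr2, a fibroblast growth factor receptor, at -0.31 ± 0.062 (limma adjusted p = 0.00552). The list median was 0.19 in clone 1-4 and 0.03 in clone C1, and it was -0.06 on day 2. Spry4, a feedback inhibitor of ERK signalling, rose by 0.43 ± 0.100 (limma adjusted p = 0.0142) and lost its call without KO-KO replicate 1 (0.0606). The rises numbered 1 without WT-KO replicate 4, 2 without KO-KO replicate 1 or 3 or WT-KO replicate 5, and 3 without KO-KO replicate 2 or WT-KO replicate 1. In the Wnt pathway, 1 of 26 genes rose, the receptor Fzd5 at 0.25 ± 0.042 (limma adjusted p = 0.00161), and 4 fell (19.2% called). The falls numbered 1 without KO-KO replicate 1 or 2, and 2 without KO-KO replicate 3 or 4 or WT-KO replicate 2, 3, 4 or 5.

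The label of the cells as embryonic stem cells matched their markers. The summed level of 6 stem cell markers was 14.58 to 14.72 in WT-KO and 14.63 to 14.74 in KO-KO (log2), although 1 of them, Fut4, lay below log2 of 10. Markers of other cells were low: fibroblast markers summed to 6.13 to 6.26 and 6.12 to 6.42, mesoderm markers to 4.83 to 5.09 and 4.61 to 4.79, and trophectoderm markers to 8.13 to 8.47 and 8.25 to 8.84. Markers of primitive endoderm, the yolk sac lineage that arises beside the epiblast, summed to 9.91 to 10.30 in WT-KO and to 10.41 to 10.71 in KO-KO, so these groups did not overlap. The mesoderm sums did not overlap either, with KO-KO the lower, and the 1 tested mesoderm marker was called lower. Among all tested genes, the groups did not overlap for 12.6%. Values were present for 8 of 9 primitive endoderm, 3 of 4 mesoderm and 4 of 8 fibroblast markers. Of the 9 primitive endoderm markers 6 were tested and 2 rose, and their part in the other results was not tested. Of 21 tested genes of that lineage 2 rose and none fell (9.52% called, near the 8.38% of all genes), at a median of 0.16: Lama1, a basement membrane laminin, by 0.48 ± 0.087 (SE, limma adjusted p = 0.00294), and Sox7 by 0.38 ± 0.093 (limma adjusted p = 0.0189), the latter lost without 4 of the libraries, at up to 0.0717 without KO-KO replicate 1. The rises numbered 4 without WT-KO replicate 3. The defining factors Sox17 and Foxa2 lay below log2 of 10, and Gata4 (0.20 ± 0.139) and Gata6 (0.27 ± 0.130) did not pass.

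Of the 1256 called genes, 1255 moved the same way in both Lin28a-null clones. The genes were called on both clones pooled, so this selection favours the same direction, and the count is no test of agreement. The exception was Aff3 (0.02 in clone 1-4 and -0.57 in clone C1). Its call was lost without 8 of the 10 libraries, at limma adjusted p up to 0.133 without WT-KO replicate 2. The called genes had a median absolute log2 difference of 0.26 in clone 1-4 and 0.30 in clone C1. The runs of 1 clone alone also held Lin28a-intact libraries, of clone 1 with clone 1-4 and of clone E3 with clone C1. Fitted alone, clone 1-4 called 287 genes and clone C1 153. Of 86 called genes named in this report, 47 lost their call in clone 1-4 alone and 56 in clone C1 alone. These runs hold fewer libraries, so a lost call is no test of a difference between clones. The test of the difference between clones called 0 of 14988 genes (0%) in limma, with 124 genes higher in clone C1 and 268 lower at an unadjusted p under 0.05, and a smallest adjusted p of 0.3553. It called 2 genes without KO-KO replicate 1 or 5 or WT-KO replicate 1. The gene with the smallest p was Sema3e, which differed by -0.30 in clone 1-4 and -1.09 in clone C1. Trim71 itself stood at -1.10 and -1.56.

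The primitive endoderm genes were the list in which the clones lay farthest apart. Its median was 0.55 in clone 1-4, with 21 of 21 genes positive, and 0.005 in clone C1, with 11 of 21 positive. By day it was 0.57 and 0.49 on days 1 and 5, and 0.09, -0.17 and 0.0 on days 2, 3 and 4. Cubn, an endocytic receptor, read 4.23 and 4.18 on days 1 and 5 in WT-KO and 5.51 and 5.01 in KO-KO, while on days 2, 3 and 4 it read 4.53, 4.84 and 4.64 in WT-KO and 4.95, 4.64 and 4.82 in KO-KO. Its differences were 1.05 in clone 1-4 and 0.14 in clone C1, and those of Col4a1, a basement membrane collagen chain, were 0.98 and 0.01. In this list 14 of 21 genes had an unadjusted p under 0.05 for the clone difference, against 2.62% of all genes, but none passed after adjustment, so a difference between clones was not shown. The split of the lists by clone was looked at after their values were seen.

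**Figure D5:**
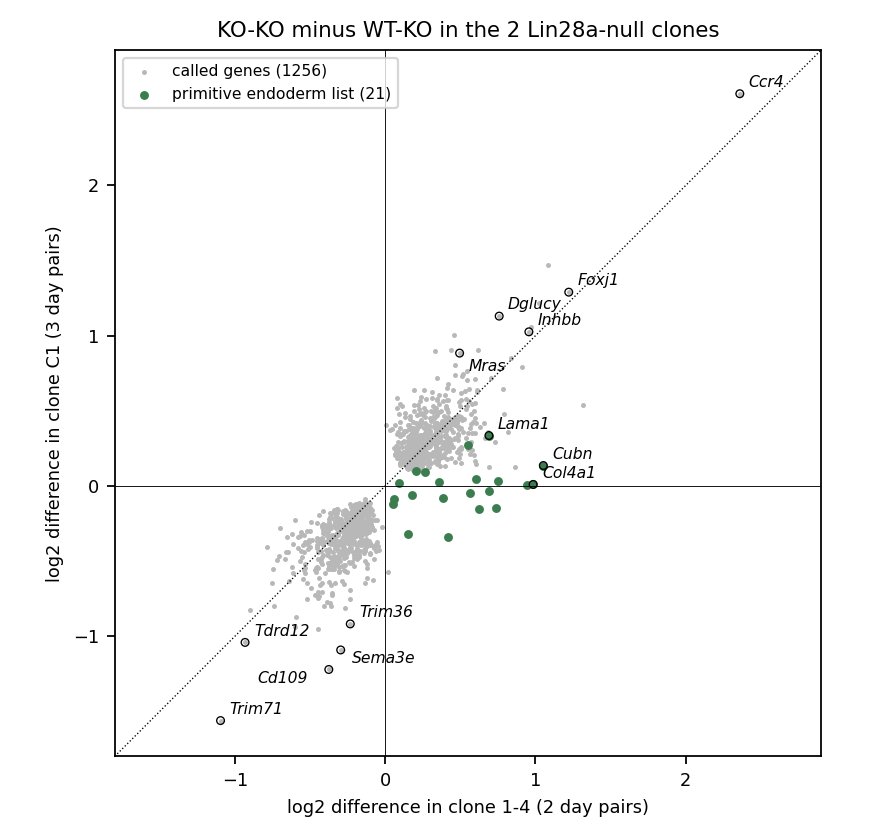
Log2 difference KO-KO minus WT-KO in clone 1-4 (x axis, 2 day pairs) against clone C1 (y axis, 3 day pairs) for the 1256 called genes (grey) and the 21 tested primitive endoderm genes (green). The dotted line marks equal differences. Called genes, which were chosen on both clones pooled, gather along it. The green points spread to the right at values near 0 in clone C1, as Col4a1 does (0.98 and 0.01).

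Germline, imprinted and interferon genes were called at shares above the 8.38% of all genes, and the zinc finger genes near it. Of 36 germline and piRNA genes, 3 rose and 3 fell (16.7% called), at a median of 0.002, with 1 fall without KO-KO replicate 1, 2 or 3 or WT-KO replicate 4: beside the fall of Tdrd12, Mov10l1, a helicase of the piRNA pathway, rose by 0.30 ± 0.051 (SE, limma adjusted p = 0.00183) and the cohesin gene Stag3 by 0.21 ± 0.043 (limma adjusted p = 0.00773). Of 17 interferon-stimulated genes, 2 rose and 4 fell (35.3% called), Ifitm1 among the latter, and 1 fell without KO-KO replicate 1, 2 or 3 or WT-KO replicate 4. Of 29 imprinted genes, 1 rose and 3 fell (13.8% called), and all 4 calls were lost without some library. Of 56 genes numbered Zfp900 to Zfp999, 4 fell and none rose (7.14% called), but their list median was 0.38 on day 3 and -0.37 on day 4, and the falls numbered 2 without KO-KO replicate 1 or 2 or WT-KO replicate 4 and 7 without WT-KO replicate 3. Many of these zinc finger genes are near-identical copies, so the split of reads among them is uncertain.

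Housekeeping gene sets had medians close to 0. Of 82 cytosolic ribosomal protein genes, 3 fell and none rose (3.66% called), at a median of -0.04. The difference was negative for 73 of the 82, against 53.4% of all tested genes. The median was -0.07 in clone 1-4 and -0.02 in clone C1. None of these ribosomal protein genes passed without KO-KO replicate 1 or 2 or WT-KO replicate 1, 4 or 5. Of 78 nuclear subunits of oxidative phosphorylation 1 passed (1.28%), at a list median of -0.01, and of 26 genes of cholesterol synthesis and uptake none passed in limma, with 1 at an unadjusted p under 0.05. Of 32 genes of glycolysis and hypoxia, 2 rose (6.25% called), 1 of them the glucose transporter Slc2a3 (0.28 ± 0.043 SE, limma adjusted p = 0.00107). Of 25 genes of DNA methylation and Polycomb, 3 rose and 1 fell (16% called), among them Zfp57, which protects imprints, at 0.27 ± 0.049 (limma adjusted p = 0.00248). The rises of the last list numbered 1 without KO-KO replicate 1 or WT-KO replicate 4 or 5, and 5 without WT-KO replicate 2.

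Trim71 loss with Lin28a intact (KO-WT against WT-WT) shares no group with the comparison described here, but the same fit gave the spread for both. It called 1674 genes (11.2%). Of the genes called without Lin28a, 484 were called there too (38.5% of the 1256 and 28.9% of the 1674), 478 in the same direction and 6 in the opposite one. All 24 genes named by the rule had the same sign there, and 11 of the 12 higher and 7 of the 12 lower were called. Klf2 fell by 0.60 without Lin28a and stood at -0.11 ± 0.08 (SE) with it, and Lefty1 at -0.31 ± 0.12, with unadjusted interaction p of 0.00049 and 0.0039. Ccr4 rose by 2.51 without Lin28a and by 1.46 ± 0.23 (SE) with it, at an unadjusted limma interaction p of 0.0035. Of the genes named by the rule, 3 of the 12 higher and 2 of the 12 lower had an unadjusted interaction p under 0.05. So did 2256 of the 14988 tested genes. The test of the difference between the Lin28a states called 3 of 14988 genes (0.02%), Arf5, Ubald2 and Gm44364, and 0 without KO-KO replicate 1, 2 or 3 or WT-KO replicate 3, 4 or 5. So none of Klf2, Lefty1 and Ccr4 was shown to respond to Trim71 loss differently without Lin28a. The lists were not tested for such a difference. The Zfp900 to Zfp999 genes had a median of -0.34 with 23 falls with Lin28a intact, against -0.05 and 4 falls without it. The ribosomal protein genes had a median of 0.09 with 9 rises and 1 fall with it, against -0.04 with 3 falls and no rise without it. The cells with and without Lin28a are different clones, so Lin28a and clone cannot be told apart in that test.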

How the data were processed

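Expression was measured by mRNA sequencing. The submitters' processing notes name CASAVA 1.8, STAR and DESeq2 without their roles; annotation, build and scaling are not given in the sources used here. The table deposited by the authors holds no counts but log2 values per gene symbol (base inferred from the values), from -0.712 to 16.3. Harvest day differences had been removed (largest day term 1.70e-08), which also removed level differences between clones and ties the values of 1 day together. KO-WT replicate 5 matched the average of its group's remaining libraries to within 1.50e-08 and was left out.

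Here, limma 3.58.1 (R 4.3.3; lmFit, eBayes with trend) was fitted to 18 libraries with genotype and day, on genes reaching log2 of 10 in 4 or more of them, with Benjamini-Hochberg adjustment over all tested genes. Day is the pairing, from the labels. The run of clone 1-4 alone also held Lin28a-intact libraries of clone 1 (7 libraries in all). The run of clone C1 alone also held those of clone E3 (11 libraries in all). Named genes were called, at a mean of at least log2 of 50, without overlap, 12 highest and 12 lowest, with Lin28a, neighbours of Trim71 and list members. The lists, from general knowledge, and the genes were chosen with earlier results of these data known, so their counts are descriptions. On simulated data for this comparison (14988 genes, 200 changed), 91.5% of changes of 0.5 and 100% of 1 log2 unit were recovered. The simulated noise was independent between libraries, with no clone effect. Smaller changes were not simulated, so recovery at the median size of the called genes (0.29) is unknown. Some genes are not reported here. Alternatives are given in the closing section.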

Additional observations from a re-analysis of the deposited data

Results flagged for a closer look

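Among the genes named above, 12 of 236 groups of 5 libraries (5.08%) held 1 library whose gap to its nearest neighbour exceeded the limit of Dixon's test, about the 1 in 20 that chance gives. Because harvest day differences were removed, a high library in 1 genotype lowers the others of its day. The deposited log2 value stood apart for Emp1 (WT-KO, replicate 4) at 5.38, with the other libraries between 5.69 and 5.78. For AI481877 (WT-KO, replicate 5) the value was 6.67, with the other libraries between 6.80 and 6.86. For Dync1li1 (WT-KO, replicate 3) the value was 9.51, with the other libraries between 9.46 and 9.47. For Dync1li1 (KO-KO, replicate 1) the value was 9.46, with the other libraries between 9.42 and 9.43. For Rbl1 (WT-KO, replicate 4) the value was 8.06, with the other libraries between 7.81 and 7.87. For Dicer1 (WT-KO, replicate 4) the value was 10.42, with the other libraries between 10.21 and 10.25. For Igf2bp3 (KO-KO, replicate 3) the value was 8.15, with the other libraries between 8.27 and 8.31. For Pou5f1 (WT-KO, replicate 3) the value was 12.69, with the other libraries between 12.83 and 12.88. For Sox2 (KO-KO, replicate 5) the value was 11.66, with the other libraries between 11.49 and 11.53. For Tcl1 (WT-KO, replicate 2) the value was 8.28, with the other libraries between 8.56 and 8.60. For E2f2 (KO-KO, replicate 4) the value was 6.79, with the other libraries between 6.60 and 6.65. For Tubb3 (WT-KO, replicate 3) the value was 8.72, with the other libraries between 9.04 and 9.15.

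For 3 genes the effect of Trim71 loss differed between the Lin28a states in limma's interaction test (adjusted p = 0.0298 each). Arf5 differed by -0.50 ± 0.0741 (SE), from -0.25 without Lin28a to 0.25 with it. Ubald2 differed by -0.52 ± 0.0741, from -0.25 to 0.27. Gm44364 differed by -0.83 ± 0.126, from -0.13 to 0.70. Lin28a state and clone cannot be told apart.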

How the results depend on the processing

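Without the replicate block (genotype only, no day term), 2618 genes were called for Trim71 loss without Lin28a and 673 for its dependence on Lin28a; in simulations that fit gave 26.9% to 27.3% false calls, against 4.19% to 5.66% with the block. The 10 libraries alone, with the block, called 794 genes, clone 1-4 alone 287 and clone C1 alone 153. No filter, a stricter level, 75th percentile scaling, and eBayes without trend or robust gave 1087 to 1265. Leaving out 1 library gave 676 to 1297 calls for Trim71 loss, 0 to 4 for its dependence on Lin28a and 0 to 2 for the clone difference. The 3 interaction calls became 0 without trend and in clone 1-4 alone, and 1 in clone C1 alone. Among named genes that passed, Aff3 changed sign in clone 1-4 alone (0.0162), and none of the others did in any alternative run; the cause of these differences was not tested. Depth is unknown, so counting error cannot be given, and fold sizes hold for the deposited scale only.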
